A study of Homo sapiens with 6 samples.

Results

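Keratins are the intermediate filament proteins of epithelial cells, and a filament forms only when a type I keratin pairs with a type II keratin. The type II genes lie together on chromosome 12 and the type I genes on chromosome 17, except for KRT18, a type I gene that sits beside its type II partner KRT8 on chromosome 12. KRT8 and KRT18 mark simple and luminal epithelium, KRT5 and KRT14 mark the basal layer of stratified epithelium and the basal cells of the breast, and the hair keratins build the hard fibers of hair and nail. Their expression was examined in BT-549 cells, an established triple-negative breast cancer (TNBC) cell line, with and without silencing of PBRM1, a chromatin-targeting subunit of the PBAF remodeling complex.

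The keratin genes were taken as every row of the deposited table of raw counts whose symbol is KRT followed by a number and at most 1 letter from A to C, which leaves out pseudogenes. These were 55 of 37887 rows. All 55 were found in the GENCODE v29 annotation of GRCh38, 27 on chromosome 12 from 52168996 to 52952901 and 28 on chromosome 17 from 40654665 to 41624842. RNA-seq had been performed on 3 control libraries (shCTL) and 3 libraries of cells silenced for PBRM1 (shPBRM1). The series design describes cells that stably carry a tet-PBRM1 shRNA vector in both arms, treated with 0.1% DMSO as vehicle (shCTL) or with 500 ng/ml doxycycline (DOX; shPBRM1), whereas the titles of the samples speak of control and PBRM1 shRNAs. Effects of DOX and of the silencing therefore cannot be told apart in these libraries. The RNA came from triplicate cultures of 1 cell line, and nothing further says how separate the cultures were, so that p-values measure only the spread between these libraries.

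The libraries held 36429395 to 65096297 counts. Levels are given in CPM, counts scaled to the library size by edgeR's TMM method, and fold changes are those of shPBRM1 over shCTL. PBRM1 itself fell from 158 ± 2.30 CPM to 41.9 ± 1.22 CPM (SD, n = 3 each), a log2 fold change of -1.91 (adjusted p = 9.98e-23 by the edgeR quasi-likelihood test, Benjamini-Hochberg adjusted over all tested genes), the direction its labels give. VIM, the intermediate filament gene of mesenchymal cells, was at 621 ± 15.9 CPM in shCTL and 770 ± 12.9 CPM in shPBRM1 cells. By contrast, EPCAM, a defining marker of epithelial cells, had 0 to 8 counts per library, and CDH1 had 186 to 271 counts in shCTL cells. All keratins together took 0.0260% to 0.0274% of the counts in shCTL and 0.0285% to 0.0294% in shPBRM1 libraries.

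Of the 55 genes, 38 were silent, with 3 counts or fewer in all 6 libraries, and 32 of these had no count in any library. A count of 0 allows up to 3 counts in a library, which corresponds to between 0.0471 and 0.0804 CPM and covers counting error only. The silent genes included 12 of 13 keratins of stratified epithelium outside the basal layer (KRT1, KRT2, KRT3, KRT4, KRT9, KRT12, KRT13, KRT24, KRT76, KRT77, KRT78 and KRT79). They included 8 of 9 keratins listed for the inner root sheath and companion layer of the hair follicle (KRT25, KRT26, KRT27, KRT28, KRT71, KRT72, KRT73 and KRT74). Among the hair keratins, 13 of 17 were silent (KRT31, KRT32, KRT33A, KRT33B, KRT35, KRT36, KRT37, KRT38, KRT39, KRT40, KRT82, KRT84 and KRT85). The rest were KRT6B and KRT6C, made by epidermis under stress, the intestinal keratin KRT20, and KRT23 and KRT222. By position, 21 of 28 genes of the chromosome 17 cluster and 17 of 27 genes of the chromosome 12 cluster were silent. The silent genes summed to 4 to 6 counts in each shCTL library and to 0 counts in each shPBRM1 library.

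The other 17 genes had more than 3 counts in at least 1 library. Of these, 10 passed edgeR's filter on low counts and were tested, and 7 were too low to be tested. With both an adjusted p below 0.05 and more than a 2-fold change required, 2 keratins were higher in shPBRM1 cells (KRT8 and KRT18), where 2.87% of the 15450 tested genes were higher by this rule. In the other direction, 3 keratins were lower (KRT15, KRT81 and KRT86), against 9.68% of all tested genes. Without the fold minimum, 2 keratins were higher and 4 were lower, against 31.5% and 33.2% of all tested genes. The 2 keratins that were higher without overlap between the groups compare with 33.3% of all tested genes, and the 4 that were lower without overlap with 35.0%. Changes in these libraries were thus common in both directions. The median log2 fold change was -0.13 over the 10 tested keratins and -0.01 over all tested genes.

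**Figure D1:**
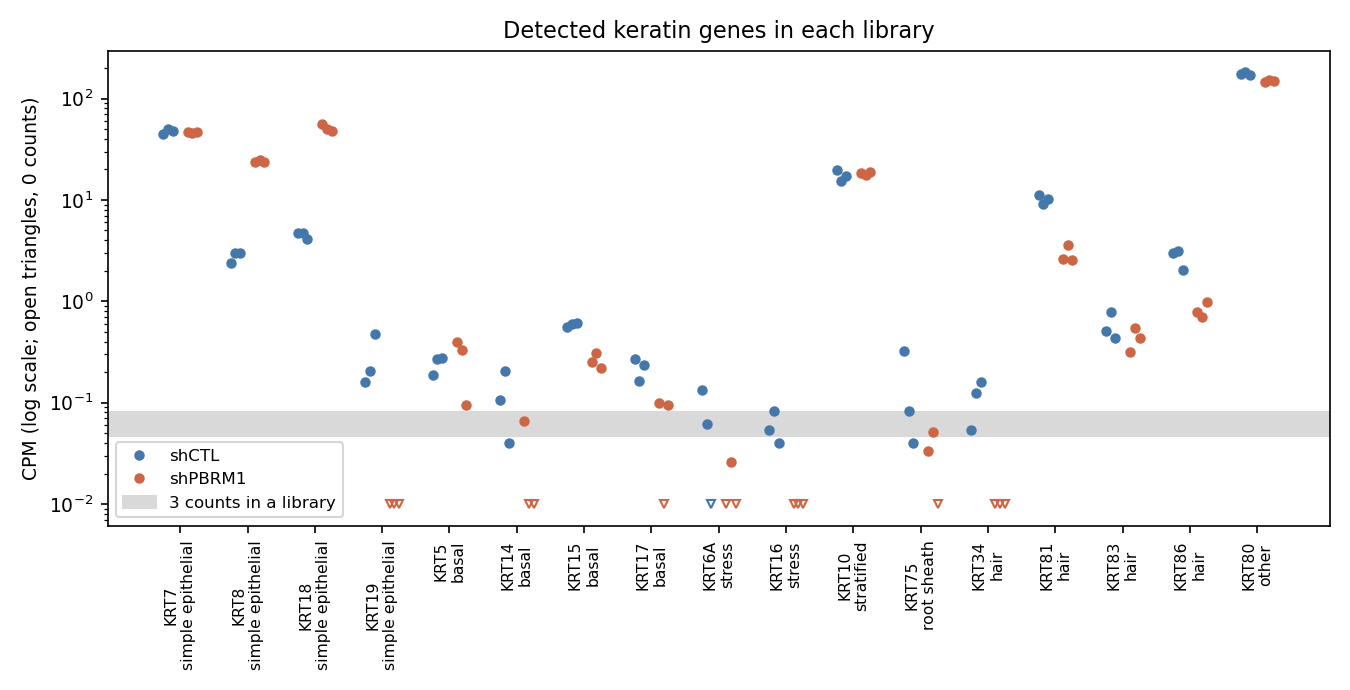
CPM of the 17 keratin genes with more than 3 counts in a library, on a log scale, with 1 point for each library (blue, shCTL; orange, shPBRM1), open triangles for libraries with 0 counts and a gray band for the CPM of 3 counts. The KRT8 and KRT18 points of the shPBRM1 libraries lie far above those of shCTL, KRT81, KRT86 and KRT15 lie lower without overlap, and KRT19, KRT16 and KRT34 have no count in any shPBRM1 library.

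The simple-epithelial class holds KRT7, KRT8, KRT18 and KRT19, and its members did not move together. KRT18 and KRT8, which form 1 filament, rose 11.4-fold and 8.43-fold. KRT7, the type II keratin of many glandular ducts, stayed within its spread, and KRT19, a type I keratin of simple epithelium, had a low level in shCTL cells and no count in shPBRM1 cells. KRT18 (ENSG00000111057.10, chr12:52948871-52952901, plus strand) had 178, 229 and 209 counts in shCTL replicates 1, 2 and 3 and 3379, 1937 and 3080 counts in shPBRM1 replicates 1, 2 and 3. In CPM these were 4.77, 4.71 and 4.14 in shCTL and 56.3, 49.8 and 48.3 in shPBRM1. Each silenced library was thus more than 10 times above each control library. The log2 fold change was 3.51 (SE 0.094, adjusted p = 5.66e-21 by the edgeR quasi-likelihood test).

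KRT8 (ENSG00000170421.12, chr12:52897187-52949954, minus strand) had 90, 146 and 151 counts in shCTL and 1412, 961 and 1494 counts in shPBRM1 replicates. Its levels were 2.41, 3.003 and 2.99 CPM in shCTL and 23.5, 24.7 and 23.4 CPM in shPBRM1 cells. The silenced libraries were close to each other and all well above the controls. The log2 fold change was 3.08 (SE 0.10, adjusted p = 1.04e-18 by the edgeR quasi-likelihood test).

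KRT18 and KRT8 rose together but not necessarily by the same factor. The ratio of KRT18 to KRT8 counts was 1.98, 1.57 and 1.38 in shCTL and 2.39, 2.02 and 2.06 in shPBRM1 libraries. The lowest silenced library was above the highest control library. The difference in log2 ratio was 0.40, with a two-sided exact permutation p of 0.1, the smallest that 3 libraries against 3 can give. This exact test therefore could not pass 0.05.

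KRT7 (ENSG00000135480.15, chr12:52232520-52252186, plus strand) was at 44.9, 50.5 and 48.3 CPM in shCTL and 47.1, 45.6 and 47.3 CPM in shPBRM1. The groups overlapped, and the log2 fold change was -0.04 (SE 0.051, adjusted p = 0.489 by the edgeR quasi-likelihood test). KRT19 (ENSG00000171345.13, chr17:41523617-41528308, minus strand) had 6, 10 and 24 counts in shCTL and 0 counts in each shPBRM1 library. It was too low for the filter, and its level was at least 4.84-fold lower in silenced cells, against a floor of 3 counts per library. This bound leans on shCTL replicate 3 and was 3.16-fold without it. Without the filter on low counts, its adjusted p was 3.38e-07 with edgeR, and DESeq2 gave 3.19e-05. KRT7 and KRT19 are often expressed in the same epithelia, but the type I member was near the floor here while the type II member was among the highest keratins.

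**Figure D2:**
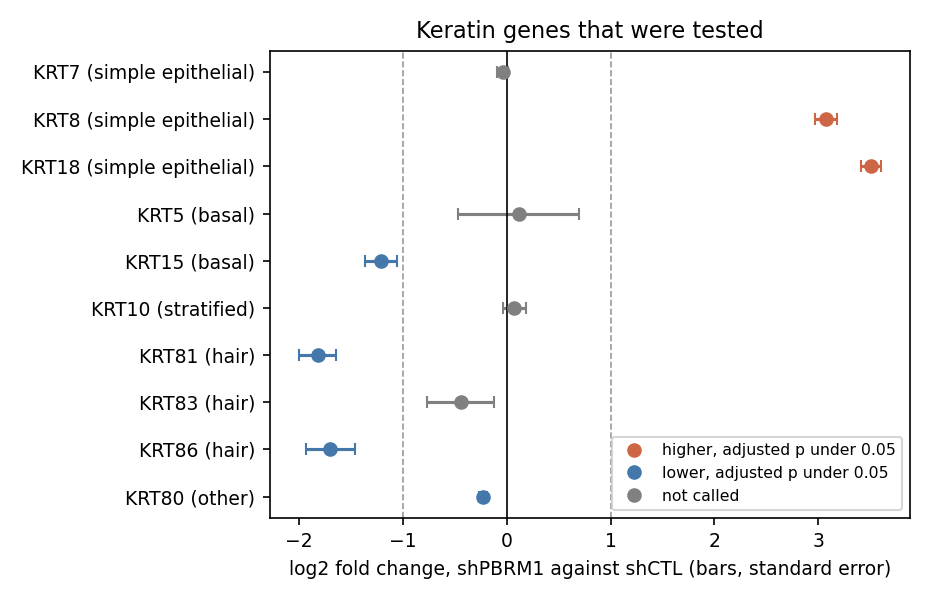
Log2 fold change of shPBRM1 over shCTL for the 10 tested keratins (points) with the standard error from the spread of log2 CPM between libraries (bars); dashed lines mark a 2-fold change. KRT8 and KRT18 stand at 3.08 and 3.51, KRT81, KRT86 and KRT15 lie between -1.82 and -1.21, and KRT7, KRT5, KRT10 and KRT83 were not called.

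The change in KRT8 and KRT18 has to be read with their many copies. The table holds 50 KRT8 pseudogenes and 66 KRT18 pseudogenes, copies spread over the genome that can take reads of the parent gene.

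Over the aligned coding bases, KRT8 was 90.5% identical to KRT8P12 and 91.7% identical to KRT8P46, the 2 KRT8 pseudogenes with the most counts. Of all 50-base windows of the KRT8 transcript, 36.9% also occur in a transcript of another gene, and 18.7% of 75-base windows do. For KRT18 these shares were 47.6% and 25.5%. KRT8P12 and KRT8P46 were easier to tell apart. Of the KRT8P12 windows, 2.15% at 50 bases and 0% at 75 bases occur in another gene, and 5.45% and 0.518% of those of KRT8P46. Other copies shared more, with 12.7% and 5.19% for KRT8P33, which was 95.8% identical to KRT8, and 40.7% and 33.2% for KRT18P5. The read length is not given in the sources used here. Part of the KRT8 and KRT18 windows are shared between these genes themselves. Their exons overlap on opposite strands in the annotation (7.63% of KRT8 exon bases and 16.3% of KRT18 exon bases). Libraries were made with a stranded kit, but whether counting used the strand is not given in the sources used here.

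The KRT8 copies with the most counts were lower in silenced cells. KRT8P12 had 199, 239 and 240 counts in shCTL and 190, 137 and 219 counts in shPBRM1 libraries, a log2 fold change of -0.57 (adjusted p = 1.79e-04 by the edgeR quasi-likelihood test). KRT8P46 had 75, 106 and 103 counts and 66, 40 and 66 counts, a log2 fold change of -0.98 (adjusted p = 8.18e-05). Some low copies were higher, among them KRT8P36, with 0 counts in each shCTL library and 3, 7 and 2 counts in shPBRM1 libraries. The 1 keratin pseudogene called higher by more than 2-fold was KRT18P5 (log2 fold change 1.46, adjusted p = 0.00988 by the edgeR quasi-likelihood test). It had 4, 12 and 5 counts in shCTL and 34, 10 and 27 counts in shPBRM1 libraries. However, 33.2% of its 75-base windows also occur in KLHL22, a gene outside the keratins. Which gene its counts came from was not tested. As a group, the 50 KRT8 pseudogenes summed to 9.16 ± 0.251 CPM in shCTL and 6.41 ± 0.558 CPM in shPBRM1 cells (SD, n = 3 each). The 66 KRT18 pseudogenes summed to 1.36 ± 0.252 CPM and 1.96 ± 0.144 CPM. In shCTL cells the KRT8 copies thus held more counts than KRT8. If every count on a copy were given to its parent, KRT8 would go from 11.96 ± 0.378 to 30.3 ± 1.23 CPM, 2.53-fold in place of 8.43-fold. KRT18 would go from 5.90 ± 0.519 to 53.4 ± 4.27 CPM, 9.06-fold. The direction held either way. KRT8P12 and KRT8P46, which share few windows with other genes, held most of the counts on KRT8 copies. Their share was 72.5% to 79.9% in shCTL and 64.8% to 72.1% in shPBRM1 libraries, so that the sum is an extreme case.

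**Figure D3:**
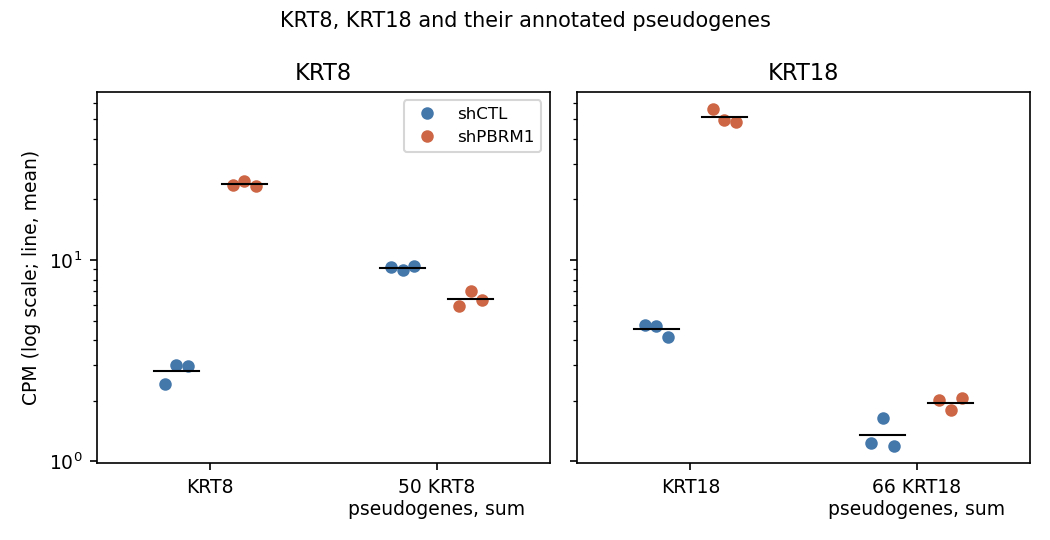
CPM on a log scale of KRT8 (left) and KRT18 (right), each beside the sum of its annotated pseudogenes, with 1 point for each library (blue, shCTL; orange, shPBRM1) and a line at each mean. KRT8 and KRT18 were higher in every shPBRM1 library, while the sum of the 50 KRT8 pseudogenes was lower (9.16 and 6.41 CPM).

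A promoter window of 250 bases before the start was found in the RefSeq table (GRCh38.p14) for 34 of the 55 keratins, of which 5 were detected here (KRT5, KRT8, KRT10, KRT34 and KRT75). The KRT8 window is shown because KRT8 had the largest change among the 5. It lies at chr12:52926470-52926719 on the minus strand, within KRT8 as GENCODE draws it. GENCODE draws the gene up to 52949954, so that on this strand the window precedes a start inside the gene. Whether these cells use that start was not tested. Capitals mark matches on either strand to CANNTG, the E-box, and to GGAAGT, an ETS-type motif.
KRT8 window: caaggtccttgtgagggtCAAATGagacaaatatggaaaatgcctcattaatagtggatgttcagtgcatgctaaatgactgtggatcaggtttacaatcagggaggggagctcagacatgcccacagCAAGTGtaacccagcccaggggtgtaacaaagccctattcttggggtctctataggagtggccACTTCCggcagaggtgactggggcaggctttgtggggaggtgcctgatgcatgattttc

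The window holds CANNTG 2 times and GGAAGT 1 time, and 61.8% and 19.5% of the 35116 windows in the table hold them. TATAAA, the TATA box, did not occur in it and is held by 10.7% of all windows. GGGCGG, an SP1-type GC box held by 42.6% of windows, was also absent. The AP-1-type motif TGANTCA, in 6.57% of windows, and the core of the interferon-stimulated response element, in 3.02%, did not occur either. In the windows of the other detected keratins, TATAAA occurred once each before KRT10 and KRT34. The interferon-stimulated response element core occurred once before KRT10, and GGGCGG once before KRT75. All of these windows held CANNTG. These matches describe the letters only.

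The neighboring genes moved in both directions. Among the 20 nearest tested genes that are neither keratins nor keratin pseudogenes, 10 on each side of KRT8 and KRT18, 6 were higher and 8 lower by adjusted p, near the 31.5% and 33.2% of all tested genes, with a median log2 fold change of -0.11. Past 2-fold, 1 was higher and 1 lower, against 2.87% and 9.68% of all tested genes. They were ESPL1 at 1.25 (separase, the protease that frees sister chromatids) and IGFBP6 at -2.34 (a binding protein of insulin-like growth factors). The nearest, EIF4B, a translation initiation factor gene at 53.3 kb, had a log2 fold change of 0.85 (adjusted p = 4.17e-15 by the edgeR quasi-likelihood test). On the side of the type II cluster the nearest was KRT7-AS, 650 kb away, at -0.05 (adjusted p = 0.876). No neighbor approached the 3.08 and 3.51 of KRT8 and KRT18.

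**Figure D4:**
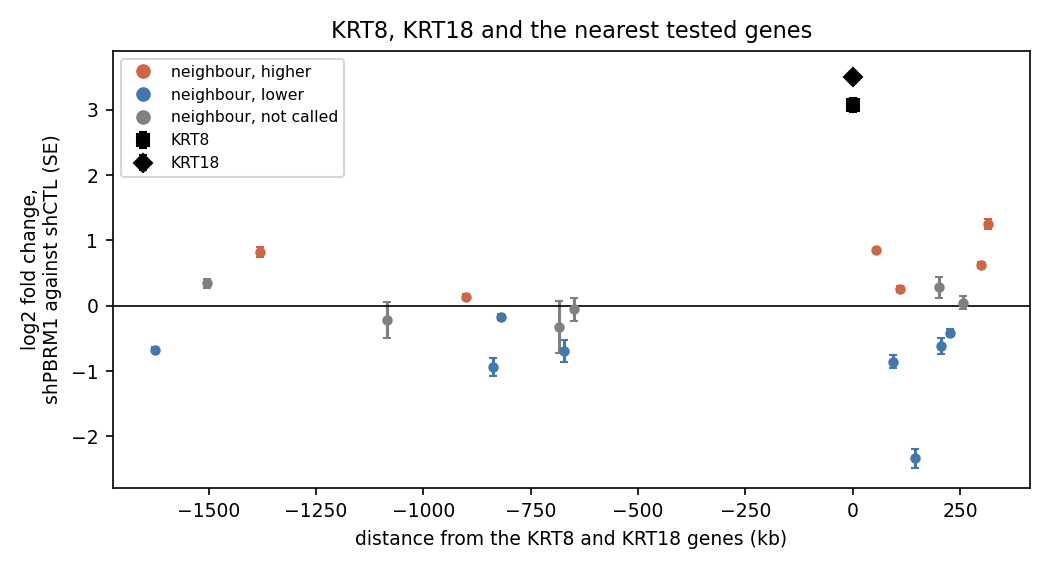
Log2 fold change of shPBRM1 over shCTL (points; bars, standard error) for KRT8, KRT18 and the 10 nearest tested genes on each side, by distance in kb, without keratins and keratin pseudogenes. The neighbors lie between -2.34 and 1.25 and fall on both sides of 0.

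The basal keratins were close to the floor in both groups. KRT5, the type II keratin of basal cells, had 7, 13 and 14 counts in shCTL and 24, 13 and 6 counts in shPBRM1 libraries. The groups overlapped, at a log2 fold change of 0.12 (adjusted p = 0.852 by the edgeR quasi-likelihood test). KRT15, a type I keratin of basal cells and hair follicle stem cells, had 21, 29 and 31 counts in shCTL and 15, 12 and 14 counts in shPBRM1 libraries. It was lower in all 3 silenced libraries, with a log2 fold change of -1.21 (SE 0.15, adjusted p = 0.00537).

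KRT14, the partner of KRT5, had 4, 10 and 2 counts in shCTL and 4, 0 and 0 counts in shPBRM1 libraries. KRT17, a type I keratin of basal and injured epithelium, had 10, 8 and 12 counts in shCTL and 6, 0 and 6 counts in shPBRM1 libraries. Both were too low to be tested. Summed over KRT5, KRT14, KRT15 and KRT17, the basal class was at 1.18 ± 0.0548 CPM in shCTL and 0.622 ± 0.205 CPM in shPBRM1 cells (SD, n = 3 each), against 55.5 ± 3.07 and 122 ± 4.25 CPM for the simple-epithelial class. The stress keratins KRT16, at 2 to 4 counts in shCTL and 0 in shPBRM1, and KRT6A, at 0 to 5 and 0 to 1, were also near the floor. In a bulk library, fewer cells that express such a gene cannot be told apart from less RNA per cell.

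Of the 3 tested hair keratins, 2 were lower in silenced cells by more than 2-fold, where 9.68% of all tested genes were lower by this rule. KRT81, KRT83 and KRT86, type II keratins of the hair cortex, form a group of similar genes on chromosome 12. KRT81 and KRT86 were 93.9% identical over their aligned coding bases, KRT81 and KRT83 were 93.3% identical, and KRT86 and KRT83 were 91.6% identical. The following 90 coding bases show how little separates them, with capitals at the positions where the 3 differ. They lie at chr12:52288367-52288456 (minus strand), chr12:52304932-52305021 (plus strand) and chr12:52317687-52317776 (minus strand) in GRCh38.
KRT81: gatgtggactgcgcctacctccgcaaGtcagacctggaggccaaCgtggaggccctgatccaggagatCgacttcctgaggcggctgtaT
KRT86: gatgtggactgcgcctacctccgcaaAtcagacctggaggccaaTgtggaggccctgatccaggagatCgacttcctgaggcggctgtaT
KRT83: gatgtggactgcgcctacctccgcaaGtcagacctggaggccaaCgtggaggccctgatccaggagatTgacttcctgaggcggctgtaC

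Only 4 of the 90 bases differ among the 3 genes, and KRT86 and KRT83 each differ from KRT81 at 2. The 3 genes are thus more alike in this stretch than over their aligned coding bases. Of the 75-base windows of the transcripts, 36.6% for KRT81, 32.6% for KRT86 and 3.55% for KRT83 also occur in another gene, so that the split of reads among them is uncertain. KRT81 (ENSG00000205426.10, chr12:52285913-52291534, minus strand) had 417, 447 and 513 counts in shCTL and 158, 140 and 162 counts in shPBRM1 libraries. It fell from 10.2 ± 0.989 to 2.92 ± 0.585 CPM (SD, n = 3 each), a log2 fold change of -1.82 (SE 0.18, adjusted p = 6.24e-12 by the edgeR quasi-likelihood test). The groups did not overlap.

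KRT86 (ENSG00000170442.11, chr12:52249300-52309163, plus strand) had 112, 153 and 103 counts in shCTL and 47, 27 and 63 counts in shPBRM1 libraries. It was lower in every silenced library, with a log2 fold change of -1.70 (SE 0.24, adjusted p = 2.14e-07). KRT83 (ENSG00000170523.3, chr12:52314301-52321398, minus strand) had 19, 38 and 22 counts in shCTL and 19, 21 and 28 counts in shPBRM1 libraries. Its groups overlapped in CPM, and its log2 fold change of -0.44 did not pass the test (adjusted p = 0.284).

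Counting KRT81, KRT83, KRT86 and the pseudogene KRT87P as 1 group sets aside the split among them. The group was at 15.1, 13.4 and 13.0 CPM in shCTL and 4.03, 5.04 and 4.28 CPM in shPBRM1 libraries, 3.11-fold lower in the means and without overlap. KRT34, a type I hair keratin, had 2, 6 and 8 counts in shCTL and none in shPBRM1 libraries. Its mean in shCTL was 1.93-fold above the floor of the shPBRM1 libraries, and 1.52-fold without shCTL replicate 3. The 2 counts of shCTL replicate 1 lie within the floor of 3 counts. Without the filter on low counts, KRT34 had an adjusted p of 0.0050 with edgeR, and DESeq2 gave 0.0084. KRT75, a keratin of the companion layer of the hair follicle, had 12, 4 and 2 counts in shCTL and 2, 2 and 0 counts in shPBRM1 libraries.

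Other hair genes were listed beside these keratins. Of 112 rows named for keratin-associated proteins, which crosslink hair keratins, 17 are pseudogenes by name and 1 is an antisense RNA. Of the other 94, 93 were silent, and none of the 112 could be tested. Of 6 regulators and structural genes of the hair follicle, 2 were tested and neither was called. HOXC13, a homeobox activator of hair keratin genes, had 345 to 537 counts in shCTL and 407 to 560 counts in shPBRM1 libraries, at a log2 fold change of -0.11 (adjusted p = 0.304 by the edgeR quasi-likelihood test). HOXC13 was named after its value was seen.

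Of the remaining detected keratins, KRT80 and KRT10 were abundant. KRT80 (ENSG00000167767.13, chr12:52168996-52192000, minus strand), a type II keratin found in many epithelia, was at 173, 182 and 169 CPM in shCTL and 145, 154 and 149 CPM in shPBRM1 libraries. The groups did not overlap, but the change was small, with a log2 fold change of -0.23 (SE 0.038, adjusted p = 1.04e-05 by the edgeR quasi-likelihood test). KRT10 (ENSG00000186395.7, chr17:40818117-40822595, minus strand), the type I keratin of the upper epidermis, was at 17.5 ± 2.28 CPM in shCTL and 18.3 ± 0.720 CPM in shPBRM1 cells (log2 fold change 0.07, adjusted p = 0.426). Its type II partner KRT1 was silent.

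Among 8 pairs of type II and type I keratins that assemble together, KRT8 with KRT18 was the only one with both members tested. In 2 pairs both members were silent (KRT4 with KRT13 and KRT3 with KRT12), and in 2 pairs 1 member was silent (KRT1 with KRT10 and KRT6B with KRT17). In the other 3 (KRT7 with KRT19, KRT5 with KRT14 and KRT6A with KRT16) at least 1 member was too low to be tested.

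Levels of different genes were compared as CPM per kb of transcript. In shCTL cells the order was KRT80 (45.3 CPM per kb), KRT7 (27.3), KRT10 (8.24), KRT81 (5.28), KRT18 (3.05), KRT8 (1.49) and KRT86 (1.27), and only the last 2 of these overlapped between libraries. In shPBRM1 cells it was KRT80 (38.6 CPM per kb), KRT18 (34.5), KRT7 (26.6), KRT8 (12.7), KRT10 (8.63), KRT81 (1.52) and KRT86 (0.381), with overlap between KRT80 and KRT18 alone. KRT18 thus stood in the fifth place in shCTL and was not separated from the first place in shPBRM1 cells. This rests on the length used. With all exons merged as the length, KRT80 made up 45.2% ± 1.36 and KRT18 21.1% ± 1.57 of the keratin CPM per kb in shPBRM1 cells, without overlap.

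The make-up of the keratin RNA changed accordingly. KRT18 made up 3.27% ± 0.207 of the keratin CPM per kb in shCTL and 27.9% ± 1.83 in shPBRM1 cells (SD, n = 3 each). KRT8 made up 1.60% ± 0.191 and 10.3% ± 0.351. KRT80 went from 48.6% ± 0.668 to 31.3% ± 1.22, and KRT81, KRT83 and KRT86 together from 7.36% ± 0.593 to 1.72% ± 0.256. All simple-epithelial keratins made up 34.4% ± 1.57 in shCTL and 59.8% ± 1.37 in shPBRM1 cells. With all exons merged as the length, the shares were lower, at 2.04% and 21.1% for KRT18, 0.589% and 4.57% for KRT8 and 19.7% and 40.6% for the simple-epithelial class. Shares sum to a fixed total, so that a larger share of KRT18 lowers the share of KRT80 and KRT7 without a change in their own level.

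Since filaments need both types, the balance of the types is of interest. Type II keratins exceeded type I keratins per kb by 6.04, 7.60 and 6.80 times in shCTL replicates 1, 2 and 3 and by 1.69, 1.95 and 1.93 times in shPBRM1 replicates. The share of type I keratins was 12.9% ± 1.29 and 35.0% ± 1.81. RNA levels do not measure the proteins.

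**Figure D5:**
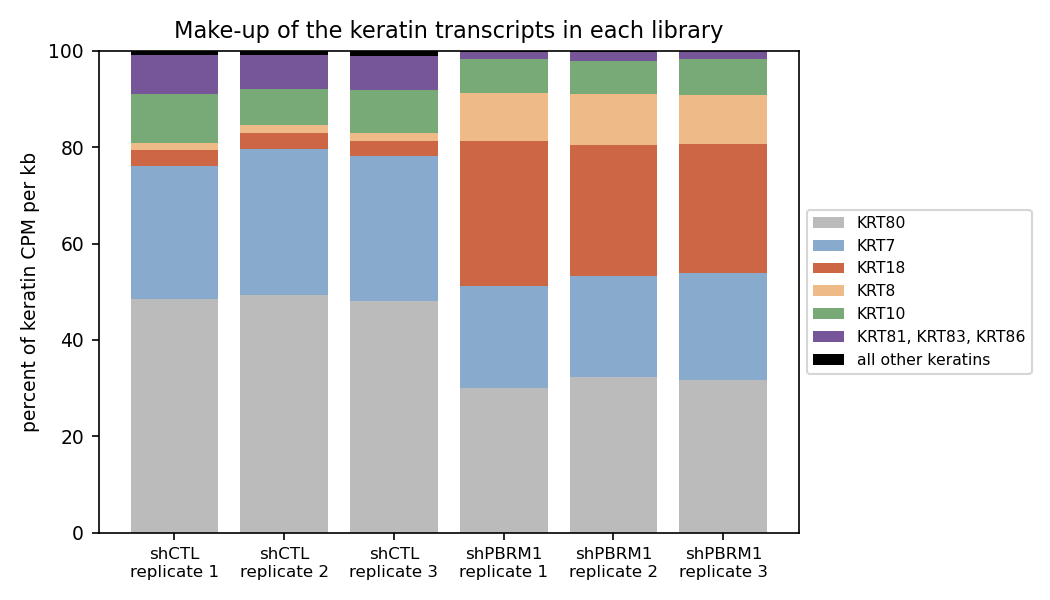
Share of each keratin in the summed keratin CPM per kb, in percent, for each of the 6 libraries (stacked bars). KRT18 and KRT8 make up 3.27% and 1.60% on average in shCTL and 27.9% and 10.3% in shPBRM1 cells, while the bands of KRT80 and of KRT81, KRT83 and KRT86 are narrower.

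Genes that work with keratins or mark the same epithelia were then listed beside them, and their calls by adjusted p are to be read against the 31.5% higher and 33.2% lower of all tested genes. Of 21 markers of epithelial identity, 4 were silent and 12 were tested, of which 1 was higher and 6 were lower by adjusted p. Their median log2 fold change was -0.62. CDH1 (E-cadherin) changed by a log2 fold change of -1.73, CLDN4 (a tight junction claudin) by -1.38 and EHF (an epithelial ETS factor) by -0.81, while MAL2 (apical transport) was the 1 that was higher, at 1.45. The list's summed level was 161 to 169 CPM in shCTL and 161 to 168 CPM in shPBRM1 libraries, most of it from CDH3.

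Keratin filaments are anchored at desmosomes and hemidesmosomes. Of 21 genes of these junctions, 14 were tested, 6 higher and 6 lower, with a median log2 fold change of 0.14. DSP (desmoplakin), which ties keratin filaments to desmosomes, had 288, 371 and 422 counts in shCTL and 34, 22 and 66 counts in shPBRM1 libraries. It fell without overlap, at a log2 fold change of -3.41 (adjusted p = 2.19e-14 by the edgeR quasi-likelihood test). JUP (plakoglobin) was lower at -0.89. The hemidesmosome integrin chains moved apart, with ITGA6 at 0.87 and ITGB4 at -0.86. Of 5 partners of keratin filaments, 4 were tested, 1 higher (CSNK1A1, a casein kinase, 0.19) and 2 lower (FAM83H, which recruits that kinase to keratin filaments, -0.60, and TCHP, trichoplein, -0.53).

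Of 16 genes of other intermediate filaments, 11 were tested, 3 higher and 6 lower, with a median of -0.12. VIM had a log2 fold change of 0.31 (adjusted p = 1.51e-07 by the edgeR quasi-likelihood test). The B-type lamin genes LMNB2 and LMNB1 were higher at 0.58 and 0.55, and SYNC (syncoilin) and SYNM (synemin) were lower at -0.52 and -0.41. The 1 filament gene outside the keratins that passed 2-fold was DES (desmin), at 11 to 15 counts in shCTL and 3 to 5 in shPBRM1 libraries.

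Of 14 genes of squamous differentiation and its regulators, 7 were silent and 6 were tested, none higher and 5 lower (31.5% and 33.2% of all tested genes), with a median of -0.88. KLF4 (-1.55), TP63 (-1.25), KLF5 (-1.14) and TFAP2C (-0.61) are transcription factors known for regulating epithelial and keratin genes. IVL, SPRR1A, SPRR1B and SPRR3, genes of the cornified envelope, had no counts. Of 6 luminal breast genes, 3 were tested, none higher and 2 lower, against 31.5% and 33.2% of all tested genes. XBP1, a transcription factor of secretory cells, was lower at -0.43, and ESR1 had 0 to 2 counts. Whether luminal genes moved with KRT8 and KRT18 was not tested, and 3 tested genes are too few to show it.

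Markers of other cells were measured as well. Of 8 mesenchymal markers, all were tested, 3 higher and 4 lower, against 31.5% and 33.2% of all tested genes, with a median of -0.19. The 4 lower were FN1 (-1.33), SNAI2 (-0.73), ZEB2 (-0.65) and ZEB1 (-0.55). The 3 higher were CDH2 (0.54), VIM (0.31) and TWIST1 (0.17). The summed level of the 8 was 1786 to 1838 CPM in shCTL and 1624 to 1652 CPM in shPBRM1 libraries. Of 11 markers of blood, endothelial and pigment cells, 4 were tested, 2 higher and 1 lower, at a summed level of 3.22 to 3.37 CPM in shCTL and 3.67 to 4.33 CPM in shPBRM1 libraries. MLANA, a pigment cell gene, was higher at 0.94. CD14, a blood cell gene, was 2.01-fold higher (adjusted p = 0.0160 by the edgeR quasi-likelihood test). It had 9, 23 and 14 counts in shCTL and 36, 29 and 44 counts in shPBRM1 libraries. PTPRC, another blood cell gene, was the 1 that was lower, at -2.55 (adjusted p = 6.35e-06). It had 26, 40 and 44 counts in shCTL and 12, 4 and 6 counts in shPBRM1 libraries. CD3E and TYR had no counts. The part of these genes in the keratin results was not tested.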

How the data were processed

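RNA-seq was analyzed for 3 shCTL and 3 shPBRM1 libraries of BT-549 cells, grouped by the sample titles. The table the authors deposited holds raw counts by gene symbol, with no normalization. The submitters' processing notes name CASAVA 1.8.2, STAR 2.7.9a, featureCounts, DESeq2 1.24.0 and GRCh38.p7. The annotation, and whether counting used the strand, are not given in the sources used here. In each library more rows held 2 counts (1553 to 1710) than 1 count (919 to 982), so that a low count can be fewer fragments than its number.

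Counts were tested in R 4.3.3 with edgeR 4.0.16: TMM factors, filterByExpr (15450 genes kept) and the quasi-likelihood F-test. Benjamini-Hochberg adjustment ran over all tested genes. A call needed an adjusted p below 0.05 and more than a 2-fold change. Adjusted p-values without a named tool come from this test. Standard errors come from log2 CPM with 2 counts added. The floor was 3 counts per library. Libraries of a group differed by more than sampling noise (chi-square per degree of freedom 4.92 to 24.9). Positions and lengths (median of principal transcripts) are from GENCODE v29, and transcripts were compared with Python 3.11.15 and Biopython 1.88. The test was also run on simulated counts, drawn independently for each library, with the outcome not reported here.

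The members and gene lists were chosen with earlier results of these data known. Every keratin was accounted for by name. From each other list at most 4 genes were named, those with the largest absolute change among those past the 0.05 threshold whose mean reached 100 counts, besides CDH1, EPCAM and VIM. HOXC13, DES, CDH2, CDH3, TWIST1, PTPRC, CD14, CD3E, TYR, IVL, SPRR1A, SPRR1B, SPRR3 and ESR1 were named outside this rule, after their values were seen. A few genes and sequences are not reported here.

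Libraries with the same replicate number in the titles deviated together, with correlations across 5622 genes of 0.733, 0.593 and 0.418. However, shCTL replicate 2 and shPBRM1 replicate 3 also reached 0.464. The main test and the permutation test left this pairing out. Libraries of equal number were taken as pairs only in the replicate block and the sign-flip test. Alternatives were DESeq2 1.42.0, RLE factors, library size only, no filter, a minimum mean of 50 counts, the replicate block and each library left out in turn. Lengths of all exons merged were added as an alternative after seeing the data.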

Additional observations from a re-analysis of the deposited data

How the results depend on the processing

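KRT8, KRT18, KRT15, KRT81, KRT86 and KRT80 kept their direction and their call under each alternative that tested them, with log2 fold changes of 2.99 to 3.12 for KRT8, 3.44 to 3.55 for KRT18, -1.32 to -1.10 for KRT15, -1.97 to -1.73 for KRT81, -1.88 to -1.58 for KRT86 and -0.28 to -0.20 for KRT80. The count of keratins higher by more than 2-fold was 2 under all 12 alternatives. The count of keratins lower by more than 2-fold, 3 in the report, was 5 with DESeq2 and 5 without the filter on low counts, where KRT19 and KRT34 were added, 2 with a mean of at least 50 counts, where KRT15 was not tested, and between 3 and 5 when 1 library was left out. It was 5 without shPBRM1 replicate 1, where KRT17 (adjusted p = 0.0402 by the edgeR quasi-likelihood test) and KRT19 entered. With the replicate block it stayed at 3, and the paired fit changed no other call, while the KRT18 to KRT8 ratio gave a sign-flip p of 0.25 over the pairs by an exact test, the smallest it can give. When 1 library was left out, the sign turned for 3 keratins that were not called, KRT5 (-0.33 to 0.58, below 0 without shCTL replicate 1, at -0.02, and without shPBRM1 replicates 1 or 2), KRT7 (-0.082 to 0.00013, above 0 without shCTL replicate 2) and KRT10 (-0.014 to 0.17, below 0 without shCTL replicate 2). With all exons merged as the length, the share of KRT18 went from 2.04% to 21.1%, of KRT8 from 0.589% to 4.57%, of the simple-epithelial class from 19.7% to 40.6% and of type I keratins from 14.5% to 32.4%. Silent keratins numbered 32 at 0 counts and 42 at 10 counts or fewer. Depth limits the 7 untested keratins, whose summed counts were 41 to 50 in shCTL and 3 to 12 in shPBRM1 libraries.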
